A study of Mus musculus with 3 samples.

Results

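Splicing factors and hnRNP proteins were measured here by 64 of the 26423 probes of a mouse expression array. They were chosen by gene symbol alone, without regard to their values: all probes whose platform symbol begins with Srsf, Sfrs, Hnrnp, Hnrp, Snrp, Sf3a or Sf3b, or is U2af1, U2af2, Tra2a or Tra2b. The 64 probes named 51 genes. These were 10 SR protein genes (14 probes), 4 genes of U2AF and Tra2 (5 probes), 8 of SF3A and SF3B (8 probes), 10 of Sm and other snRNP proteins (12 probes), 16 hnRNP genes (22 probes) and 3 genes (3 probes) that carry an Sfrs-type platform name but are now called Scaf11, Scaf4 and Pnisr. Some genes of these families, for example Hnrnpa1, Hnrnpk and Snrpn, had no probe under their symbol and so were not analysed here.

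The study used myeloid leukaemia cells from bone marrow of the mouse strain BXH-2, a strain prone to leukaemia driven by an endogenous retrovirus. Resistant cells, 1 array, were B117HS, a single line obtained from B117P by growing it in stepwise higher cytarabine (Ara-C) for about 10 weeks. Its IC50 was about 10 times that of B117P per the labels. Sensitive cells, 2 arrays called replicates 1 and 2, were B117P itself. Cytarabine is a deoxycytidine analogue that blocks DNA synthesis once phosphorylated. Both lines were grown in culture, and whether the drug was present at harvest is not given in the labels. The comparison asks which splicing transcripts stood higher or lower in B117HS than in B117P.

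Introns are removed from messenger RNA by the spliceosome, which is built from small nuclear RNAs, each held in a ring of Sm proteins and joined by particle-specific proteins. U2AF and the SF3A and SF3B complexes mark the end of the intron, and SR proteins bound to exons generally favour the use of nearby splice sites. The hnRNP proteins coat the transcript and often act against SR proteins. In human myeloid malignancies the genes SF3B1, SRSF2 and U2AF1 are recurrently mutated, which an expression array does not read.

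The resistant array was dimmer than the sensitive ones for most probes, though not for all, and this bears on every value below. Its median intensity over all probes was 24.9 units, against 58.4 and 72.5 on the sensitive arrays. Over the 6019 probes that reached 500 units on sensitive replicates 1 and 2 alike, called bright probes here, its median log2 ratio to the sensitive mean was -0.88. Differences are given as deposited, on log2(intensity + 50), and, for the members, mostly also after that shift was taken out of each array (called scaled). A bright probe that differed by about 0 as deposited therefore stood near 0.9 when scaled. A probe was called when limma gave an adjusted p under 0.05 and the resistant array lay at least 1 log2 unit above, or at least 1 below, each of the sensitive arrays. The verbs rose and fell are kept for probes called on both scales. Adjusted p-values are as deposited unless called scaled, and so include the shift of the resistant array. All 8 myeloid marker genes read at least 50 units on all 3 arrays on their brightest probe, but not at one level: Mpo and Kit read alike on all arrays, Spi1 read 108.9 units on the resistant array against 633.6 and 590.9 on the sensitive arrays, Itgam 443.3 against 1318.2 and 2388.7, Csf3r 66.9 against 277.1 and 445.8, and Cebpa 961.3 against 367.8 and 581.7. The 4 stromal markers stayed below 50. B cell markers summed to 151 units on the resistant array and to 1295 and 1384 on the sensitive arrays, mostly Cd79b, and T cell markers to 118 against 318 and 281. Their part in the results was not tested. In bulk RNA, fewer cells of a type and less RNA per cell cannot be told apart.

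Most splicing transcripts were lower in resistant cells on the deposited scale, by about as much as other bright transcripts, and 7 genes had 1 probe each that fell on both scales. In 6 of them, Hnrnpm, Hnrnph1, Scaf11, Snrpe, Srsf7 and Snrpa, that probe read above 10 units on the resistant array. In Srsf1 it read 3.11 units there, at background, and the other Srsf1 probe did not pass after scaling. No gene rose. As deposited, 20 of 64 probes (31.2%) were called lower, against 15.5% of all 26423 probes. Among bright probes the counts were 19 of 43 splicing probes (44.2%) and 38.7% of all. In either direction 19.9% of all probes were called. Of all probes called, 21.9% were higher as deposited and 58.9% after scaling. With arrays centred on their medians that share was 59.1%, and with quantile normalization 59.2%. After scaling, 7 splicing probes were called lower (10.9%), against 6.57% of all probes, and these 7 were all bright ones (16.3% of 43, against 13.5% of all bright probes). The share called lower was thus close to that of probes as bright on the sensitive arrays. Bright probes were chosen on the sensitive arrays alone, which favours probes that read lower on the resistant array. This holds for the 43 splicing probes and for all bright probes alike. Over the 6184 probes bright by the mean of all arrays the shift of the resistant array was -0.77, against -0.88 over the bright probes. None of the 64 probes was called higher by limma as deposited, where 4.36% of all probes were, and 3 had a positive difference at an unadjusted p under 0.05. After scaling 3 were called higher, against 9.42% of all probes, and 2 of these were among the 43 bright ones, against 15.1% of all bright probes.

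**Figure D1:**
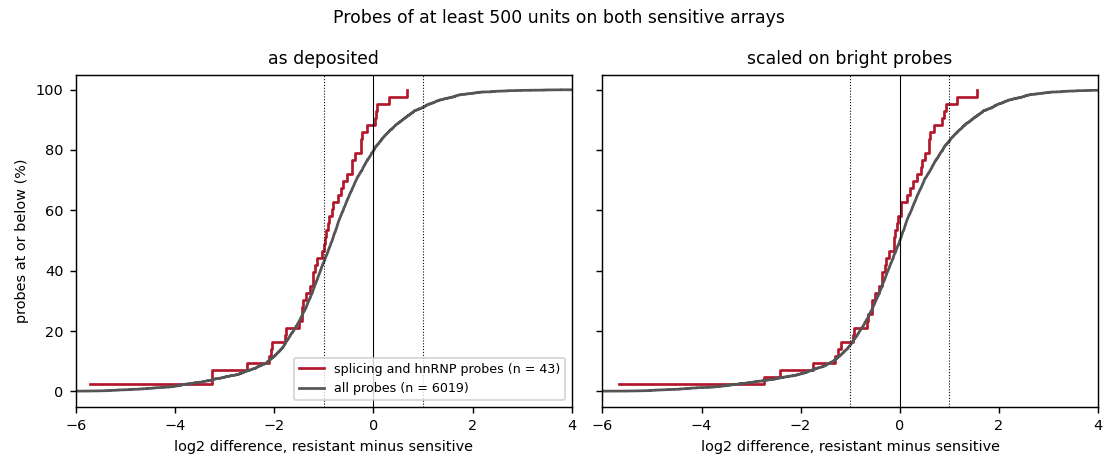
Cumulative share of bright probes (500 units or more on each sensitive array) by log2 difference, resistant minus sensitive, for 43 splicing and hnRNP probes (red) and all 6019 such probes (grey), as deposited (left) and after scaling on bright probes (right). Both curves cross the middle at similar differences, with medians of -0.98 for splicing probes and -0.83 for all bright probes as deposited, and the splicing curve ends earlier on the right, at 0.69 as deposited.

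The median log2 difference was -0.79 over the 64 probes as deposited, with a range of -3.26 to 0.69 apart from the Srsf1 probe at background, and -0.02 after scaling. Over all probes it was -0.27 as deposited and -0.02 after scaling, and over all bright probes -0.83 and 0.01. The resistant array read below both sensitive arrays for 52 of 64 probes and above both for 7, which for all probes was the case in 67.1% and 20.9%. Among bright probes it read below both for 38 of 43 and above both for 3, against 76.8% and 17.8% of all bright probes. After scaling, 31 of the 64 differences were positive and 33 negative, and among the 43 bright probes 18 were positive and 25 negative, with a median of -0.11. The scaling sets the bright probes near 0 by construction. After quantile normalization the median over the 64 probes was -0.35, against -0.02 over all probes, and after centring on array medians it was -0.17, against 0.35. The sensitive arrays differed from each other by a median of 0.17 log2 units in size, and by at least 1 for 1 probe, a dim one of Hnrnpul1.

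**Figure D2:**
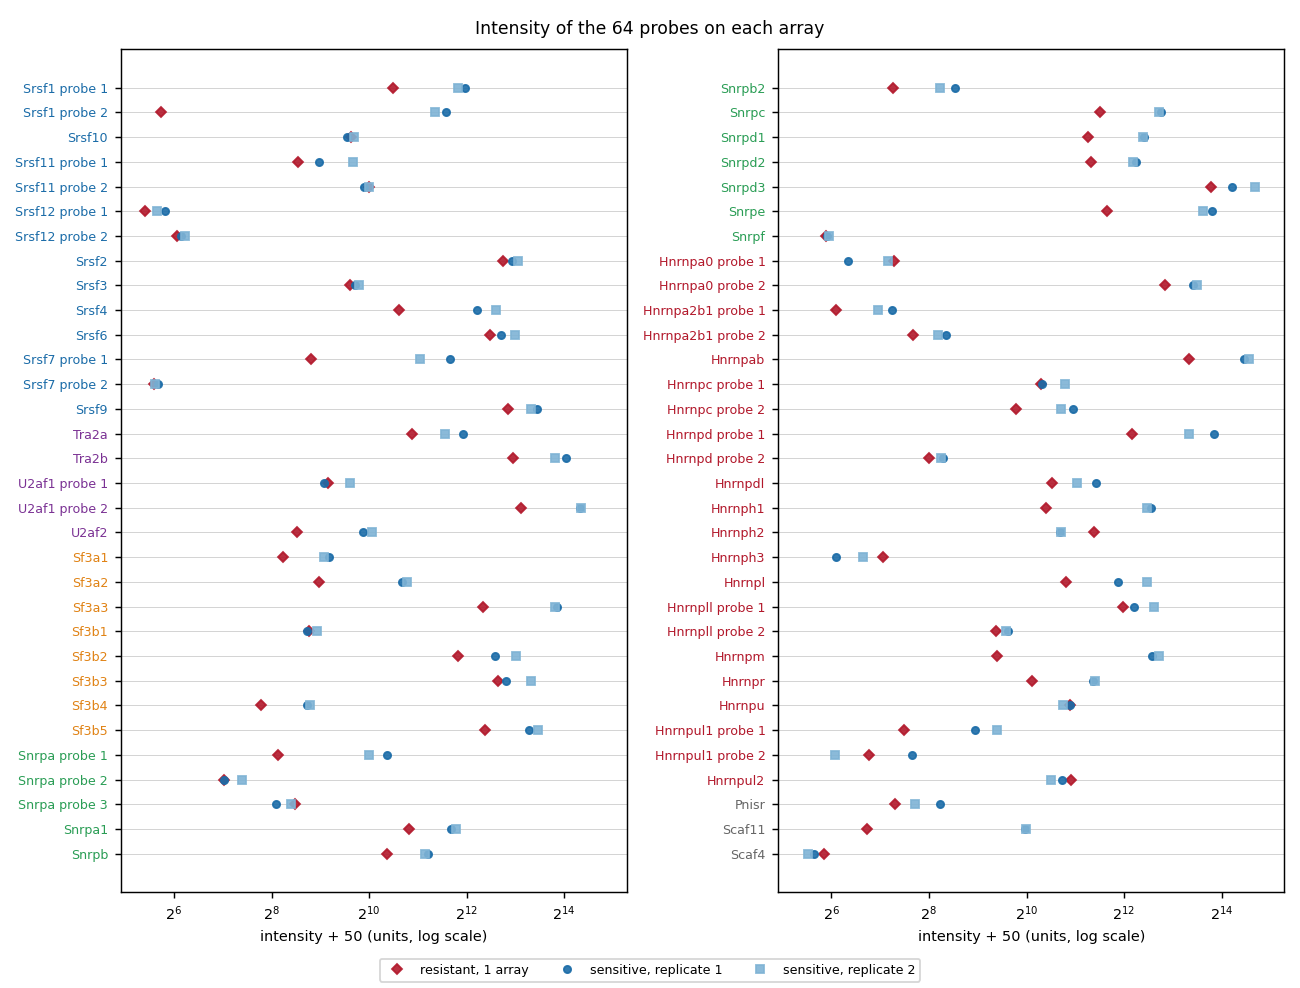
Intensity plus 50 units (log axis) of each of the 64 probes on the resistant array (red diamonds) and the 2 sensitive arrays (blue circles and squares), with gene names coloured by role and the probes of a gene numbered. The red diamond lies left of both blue markers for 52 probes, by a wide distance for Hnrnpm and Scaf11 and for the second Srsf1 probe, whose resistant reading is at background.

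Among hnRNP genes, Hnrnpm and Hnrnph1 fell while Hnrnph2, a close paralogue of Hnrnph1, read higher in resistant cells. Hnrnpm encodes a protein that binds GU-rich RNA and often promotes exon skipping. Its probe read 622 units on the resistant array, against 6068 and 6673 on the sensitive arrays (6370 ± 428, SD, n = 2). The resistant value lay below both sensitive values, as it did for 76.8% of all bright probes, and was 0.0977 of the sensitive mean. The log2 difference was -3.25 (SE 0.21, limma adjusted p = 4.13e-08) as deposited and -2.42 after scaling (scaled limma adjusted p = 0.00552). Hnrnph1, which binds runs of G, read 1300 units on the resistant array, against 5952 and 5606 on the sensitive arrays. Its log2 value fell by 2.11 (SE 0.21, limma adjusted p = 2.47e-06), and the scaled difference was -1.25 (scaled limma adjusted p = 0.0158). The probe of Hnrnph2 read 2632 units on the resistant array and 1604 and 1628 on the sensitive arrays. It lay above both, by 0.69 in log2 (SE 0.22, limma adjusted p = 0.0194), which did not reach the size asked. It was called higher after scaling (1.55), after centring on array medians and after scaling on probes bright by the mean of all arrays. After quantile normalization it was not called. Hnrnph3, the third of this G-run binding group, was dim, at 84.0 units on the resistant array against 18.6 and 50.1 on the sensitive arrays, and was called higher after scaling and after centring on array medians, but not as deposited (0.69 as deposited, 1.31 scaled). Whether the probes of these paralogues share sequence was not tested.

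The region before the annotated start of 4 of these genes is shown, 3 that fell and Hnrnph2 for contrast, since promoters are where factors that control transcription commonly bind. Each is the 250 bases upstream of the start in RefSeq, build GRCm38.p6, read 5′ to 3′ on the gene's strand, and capitals mark the letters CCGGAA (the core bound by ETS factors), CCAAT (the CCAAT box), CACGTG (the E-box bound by Myc) or TATAAA (the TATA box) on either strand. Hnrnpm lies at chr17:33685459-33685708 on the minus strand, Scaf11 at chr15:96460844-96461093 on the minus strand, Snrpe at chr1:133610281-133610530 on the minus strand and Hnrnph2 at chrX:134600929-134601178 on the plus strand.
Hnrnpm: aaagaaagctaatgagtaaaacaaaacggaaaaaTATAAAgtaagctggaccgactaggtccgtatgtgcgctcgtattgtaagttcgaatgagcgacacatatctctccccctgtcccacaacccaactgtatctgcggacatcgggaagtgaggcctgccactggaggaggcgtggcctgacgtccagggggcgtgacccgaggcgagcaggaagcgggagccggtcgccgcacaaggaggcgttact
Scaf11: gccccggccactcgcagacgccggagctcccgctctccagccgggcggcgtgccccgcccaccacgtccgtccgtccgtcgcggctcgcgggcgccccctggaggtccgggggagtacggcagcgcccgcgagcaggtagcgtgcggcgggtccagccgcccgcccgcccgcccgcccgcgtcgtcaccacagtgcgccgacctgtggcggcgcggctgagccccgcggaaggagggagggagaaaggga
Snrpe: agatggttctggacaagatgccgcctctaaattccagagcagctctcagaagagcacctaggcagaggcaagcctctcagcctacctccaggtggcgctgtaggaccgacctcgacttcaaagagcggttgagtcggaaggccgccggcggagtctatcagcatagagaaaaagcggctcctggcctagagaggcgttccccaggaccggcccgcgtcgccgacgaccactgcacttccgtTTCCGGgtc
Hnrnph2: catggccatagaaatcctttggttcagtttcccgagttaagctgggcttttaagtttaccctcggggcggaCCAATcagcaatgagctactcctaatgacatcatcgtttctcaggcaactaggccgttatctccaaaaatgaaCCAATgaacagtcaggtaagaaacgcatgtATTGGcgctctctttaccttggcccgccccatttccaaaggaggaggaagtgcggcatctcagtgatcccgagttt
The 4 windows shown held no motif in common. Hnrnpm held 1 TATAAA, near the end of its window that is far from the start and so not where a TATA box commonly lies. Snrpe held 1 CCGGAA, Hnrnph2 3 copies of CCAAT, and Scaf11 none of the motifs but 41 CG pairs. The windows of Srsf1 and Srsf7, which also had a fallen probe and are not shown, held 1 CCGGAA each, as Snrpe did. Windows were found for 43 of the 51 genes (56 windows, since some genes have several starts). Of these, 39.3% held CCGGAA, against 12.0% of all 32851 windows in the table, and 41.1% held CCAAT, against 33.8%. CACGTG stood in 5.36% and 6.02%, and TATAAA in 8.93% and 12.4%. The median number of CG pairs was 22.5 in splicing windows and 6.0 in all. Among the 12 windows of the 7 genes with a fallen probe, 3 held CCGGAA, 3 CCAAT, 2 CACGTG and 2 TATAAA. Of these windows 5 were of Hnrnph1 and 2 of Snrpa. Hnrnpm, Scaf11, Snrpe, Srsf1 and Srsf7 had 1 window each, without CCAAT or CACGTG, so those 2 motifs stood in windows of Hnrnph1 or Snrpa only. These are matches of letters, not sites of binding.

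Other hnRNP probes were spread from -1.67 to 0.53 as deposited. Hnrnpl, which binds CA repeats and regulates exons of the leukocyte phosphatase CD45, read 1739 units on the resistant array, against 3685 and 5608 on the sensitive arrays. It was called lower as deposited but not after scaling (-1.36, limma adjusted p = 0.000586, and -0.50 after scaling). Its paralogue Hnrnpll, a regulator of the same exons in lymphocytes, was not called on either probe, with 4009 units on the resistant array against 4658 and 6261 on the brighter one (log2 difference -0.43, 0.45 scaled) and 610 against 734 and 716 on the other (-0.23, 0.60 scaled). The probe of Hnrnpab, a nucleic acid binding protein related to Hnrnpd, had 10299 units on the resistant array and 22628 and 24265 on the sensitive arrays. Like Hnrnpr (-1.27), it passed the test as deposited (-1.18) but not on the scaled values, which were -0.31 for Hnrnpab and -0.42 for Hnrnpr. Hnrnpab was also called lower after quantile normalization. Hnrnpu, a nuclear scaffold protein gene, read 1843 units on the resistant array, against 1838 and 1673 on the sensitive arrays, a log2 difference of 0.07 as deposited and 0.93 scaled, not called on either scale. Hnrnpul2, a relative of Hnrnpu, read 1884 against 1640 and 1399, above both sensitive arrays, and was called higher after scaling only (0.31 as deposited, 1.17 scaled). Neither probe of Hnrnpa2b1, which encodes a widely expressed hnRNP of the A/B family, was called. They read 18.7 units on the resistant array against 102 and 73.9 on the sensitive arrays, and 154 against 277 and 241 (-0.60, scaled 0.11). Hnrnpc, which binds runs of U, was not called on either probe (-1.05 and -0.26, scaled -0.21 and 0.60), nor was the Hnrnpd relative Hnrnpdl (-0.71, scaled 0.14). In all, 7 of 22 hnRNP probes (31.8%) were called lower as deposited, against 15.5% of all probes and 38.7% of bright ones. On both scales 2 fell (9.09%, against 6.37% of all and 13.5% of bright probes). After scaling 3 were called higher, as were 9.42% of all probes and 15.1% of bright ones. The median was -0.60 as deposited and 0.21 scaled.

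**Figure D3:**
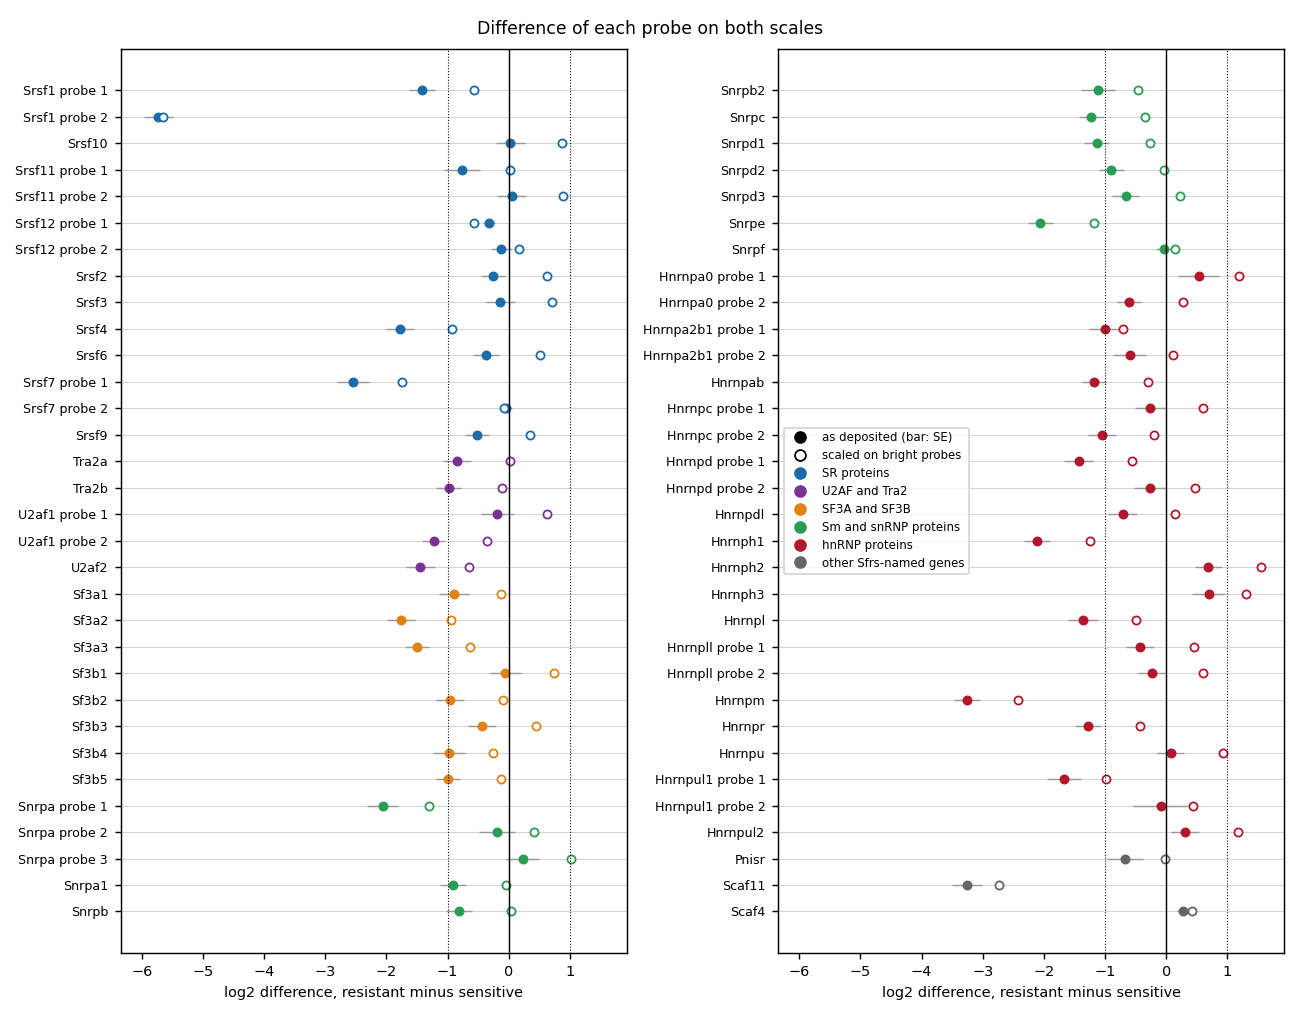
Log2 difference, resistant minus sensitive, of each of the 64 probes as deposited (filled circles, bars show limma's SE) and after scaling on bright probes (open circles), coloured by role, with dotted lines at -1 and 1. Filled circles lie below -1 for probes of every role but open circles do so for only 7, among them Scaf11 (-2.73) and Hnrnpm (-2.42), while the leftmost point, the second Srsf1 probe, has a resistant reading at background and its place is set by the offset.

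The SR protein probes ranged widely, with 2 that fell, of Srsf7 and Srsf1, and others from below to above the shift of the array. Srsf1 encodes the archetypal SR protein, which promotes exon inclusion and acts as a proto-oncogene. Its 2 probes disagreed in size. The first read 1380 units on the resistant array, against 3978 and 3593 on the sensitive arrays, which gave -1.42 in log2 (SE 0.21, limma adjusted p = 0.000110), called as deposited but not after scaling, and a scaled difference of -0.57. The second read 3.11 units, against 2992 and 2548, and was called lower on both scales (limma adjusted p = 9.02e-10 as deposited and 0.00434 scaled). A value of 3.11 units is at background, so the size of the fitted difference (-5.73, and -5.66 scaled) is set by the offset and is no measured fold. Of the 6019 bright probes, 47 read at most 10 units on the resistant array, and this was the only splicing probe among them. Of the 4 probes numbered nearest to it, Atp5g1 read 2992.9 units on the resistant array against 6267.9 and 6694.0 on the sensitive arrays, and Qk 1750.0 against 1402.7 and 1597.3. The other 2 were low on the resistant array, Aff3 with 88.7 against 1232.5 and 1179.2 and Atp13a4 with 6.2 against 48.5 and 48.8. The layout of the slide was not used here, and the cause of the low reading was not tested.

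Srsf7, an SR protein with a zinc knuckle that helps tie splicing to RNA export, read 397 units on the resistant array, against 3194 and 2048 on the sensitive arrays. Its resistant value lay below both sensitive values, and the log2 difference was -2.55 (SE 0.26, limma adjusted p = 4.13e-06) and -1.74 after scaling (scaled limma adjusted p = 0.0341). The call was lost after quantile normalization (-1.96) and after scaling on probes bright by the mean of all arrays (-1.84). A further Srsf7 probe was near 0 everywhere, at -1.56 units on the resistant array and 1.24 and -1.32 on the sensitive arrays, and gave no measurement. Srsf4, a longer SR protein gene, was called lower as deposited and after centring on array medians but not after scaling, with 1523 units on the resistant array against 4668 and 6156 on the sensitive arrays (-1.78, and -0.92 after scaling). Srsf2, which binds exonic enhancers and is the SR gene most often mutated in human myeloid disease, read 6801 units on the resistant array, against 7785 and 8494 on the sensitive arrays. Its log2 difference of -0.26 (SE 0.20, limma adjusted p = 0.323) was not called, and it was 0.62 after scaling. Srsf3, the smallest family member, read 731 units against 783 and 839 (-0.14, scaled 0.70), and Srsf6 read 5658 against 6585 and 8134 (-0.37, scaled 0.51). For Srsf10, which represses splicing when dephosphorylated, the resistant value of 745 lay between the sensitive values of 693 and 773, and the scaled difference was 0.86. On the brighter Srsf11 probe the resistant value of 972 also lay between the sensitive values, 907 and 977 (0.04, scaled 0.89). Its other probe read 325 units on the resistant array, below 451 and 765 on the sensitive arrays (-0.77, scaled 0.02). Srsf9 read 7347 against 11030 and 10204 (-0.53, scaled 0.35). No probe of Srsf2, Srsf3, Srsf6, Srsf9, Srsf10 or Srsf11 was called on either scale. Both probes of Srsf12 read at most 25.1 units on all arrays. Of 14 SR probes, 4 (28.6%) were called lower as deposited, against 15.5% of all probes and 38.7% of bright ones. On both scales 2 fell (14.3%, against 6.37% of all and 13.5% of bright probes). The median was -0.35 as deposited and 0.09 scaled.

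Of the 3 genes with an Sfrs-type platform name, Scaf11 fell. Scaf11 encodes a protein found through its binding to Srsf2. Its probe read 56.0 units on the resistant array, against 959 and 972 on the sensitive arrays (966 ± 9.18, SD, n = 2), 0.058 of the sensitive mean. The log2 difference was -3.26 (SE 0.25, limma adjusted p = 2.01e-07) and -2.73 after scaling (scaled limma adjusted p = 0.00582). Pnisr, an SR-related protein gene, read 107 units on the resistant array, against 248 and 161 on the sensitive arrays (-0.67, scaled -0.02, not called). The probe of Scaf4, a protein that binds RNA polymerase II, stayed at or below 7.78 units on all arrays.

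Among the snRNP protein genes, Snrpe and 1 probe of Snrpa fell, while other Sm genes stayed near the shift of the array. Snrpe encodes the Sm protein E of the ring shared by most spliceosomal particles. Its probe read 3155 units on the resistant array, against 14185 and 12442 on the sensitive arrays. This gave -2.06 in log2 (SE 0.20, limma adjusted p = 2.43e-06) and -1.19 after scaling (scaled limma adjusted p = 0.0200). The probes of its ring partners Snrpb, Snrpd1, Snrpd2 and Snrpd3 differed by -0.82, -1.14, -0.90 and -0.66 as deposited and by 0.04, -0.27, -0.03 and 0.22 after scaling. Snrpb, the Sm protein B gene, read 1263 units on the resistant array against 2330 and 2200 on the sensitive arrays and was not called. Snrpd1 was called lower as deposited but not after scaling. The gap between Snrpe and its partners was not itself tested. Snrpf, another ring member, read at most 11.9 units on all arrays, so its transcript was not measured by this probe.

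Snrpa encodes the A protein of the U1 particle, which binds a stem-loop of U1 RNA. Its 3 probes disagreed. The brightest read 229 units on the resistant array, against 1271 and 976 on the sensitive arrays. This gave -2.06 in log2 (SE 0.25, limma adjusted p = 1.80e-05) and -1.31 after scaling (scaled limma adjusted p = 0.0338). Another read 305 units, against 222 and 289, above both sensitive arrays (0.22, scaled 1.01), and the third read 79.3, below 79.5 and 117.4 (-0.19, scaled 0.41). The call of the brightest probe was lost after quantile normalization (-1.45). Snrpc, the gene of the C protein of U1, was called lower as deposited but not after scaling, with 2876 units on the resistant array against 6867 and 6697 on the sensitive arrays (-1.22, and -0.35 after scaling). The U2 protein genes Snrpa1 (-0.91, scaled -0.05) and Snrpb2 (-1.11, scaled -0.46) were not called, Snrpb2 because the difference from sensitive replicate 2 was -0.96. Of 12 snRNP probes, 4 (33.3%) were called lower as deposited, against 15.5% of all probes and 38.7% of bright ones. On both scales 2 fell (16.7%, against 6.37% of all and 13.5% of bright probes). The median was -0.90 as deposited and -0.04 scaled.

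No probe of SF3A and SF3B (8 probes) or of U2AF and Tra2 (5 probes) was called on both scales. Of all probes 6.37% fell, and of bright ones 13.5%, so these few probes cannot show whether the groups were spared. As deposited, 2 of the 8 and 2 of the 5 were called lower, against 15.5% of all probes and 38.7% of bright ones. Sf3b1, which contacts the branch point region, read 387 units on the resistant array, between the sensitive values of 375 and 438, which gave -0.06 in log2 (SE 0.25, limma adjusted p = 0.872) and 0.74 after scaling. Its partners in SF3B read lower on the resistant array, with -0.96 for Sf3b2, -0.98 for Sf3b4 and -0.99 for Sf3b5, none called, and -0.44 for Sf3b3. Scaled, these were -0.09 for Sf3b2, -0.26 for Sf3b4, -0.12 for Sf3b5 and 0.44 for Sf3b3. The SF3A genes Sf3a2 and Sf3a3, which join U2 to the complex, were called lower as deposited but not after scaling on bright probes. Sf3a2 read 451 units on the resistant array, against 1592 and 1699 on the sensitive arrays (-1.76, and -0.94 after scaling), and it was also called lower after centring on array medians and after scaling on probes bright by the mean of all arrays. Sf3a3 read 5091 against 14693 and 14393 (0.35 of the sensitive mean, and -0.63 in log2 after scaling) and was also called lower after quantile normalization. Sf3a1 read 252 against 533 and 491 (-0.89, scaled -0.13, not called).

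U2af1, the small U2AF subunit that reads the AG at the intron's end, gave unequal results on its 2 probes. The bright probe read 8778 units on the resistant array, against 20451 and 20839 on the sensitive arrays (-1.23, limma adjusted p = 0.000162, called as deposited and after quantile normalization but not after scaling, where it was -0.35). The dimmer probe read 520 units, between the sensitive values of 492 and 729 (-0.19, scaled 0.63). U2af2, the large subunit that binds the pyrimidine tract, read 316 units on the resistant array, against 885 and 1013 on the sensitive arrays, and was called as deposited but not after scaling (-1.45, limma adjusted p = 0.000272, and -0.66 after scaling). Tra2b, an SR-like activator that binds GAA-rich exons, read 7854 units against 16845 and 14393 (-0.98, and -0.11 after scaling), and its paralogue Tra2a read 1843 against 3815 and 2941 (-0.84, scaled 0.02). Neither was called.

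Where a gene was read by more than 1 probe, the probes often differed in size. The 12 such genes had 25 probes. The gap between the highest and the lowest log2 difference within a gene was 2.29 for Snrpa, 1.58 for Hnrnpul1, 1.16 for Hnrnpd, 1.14 for Hnrnpa0 and 1.04 for U2af1, and it was at most 0.81 for 5 others. For Srsf1 and Srsf7 no gap is given, since a probe of each read near 0 units on the resistant array or on all arrays. For Hnrnpd, the AU-rich element binding protein AUF1, the bright probe read 4522 units on the resistant array, against 14745 and 10242 on the sensitive arrays (-1.43, called as deposited but not after scaling), while the dim one read 205 against 261 and 255 (-0.27). For Hnrnpul1 the brighter probe read 131 units against 444 and 620 (-1.67, called as deposited but not after scaling), and the other read 59.1 between 152 and 17.1. Hnrnpa0, an A/B family hnRNP, had 7285 units on the resistant array against 10795 and 11460 on its bright probe (-0.61) and 106 against 31.1 and 93.7 on its dim probe (0.53). An offset of 50 units pulls the differences of dim probes towards 0, which can widen or narrow a gap between a bright and a dim probe. For Snrpa the lowest and highest differences were -2.06 and 0.22 with this offset, and -2.21 and 0.25 with an offset of 16. The cause of the gaps was not tested. Where each probe lies on its transcript was not used here.

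**Figure D4:**
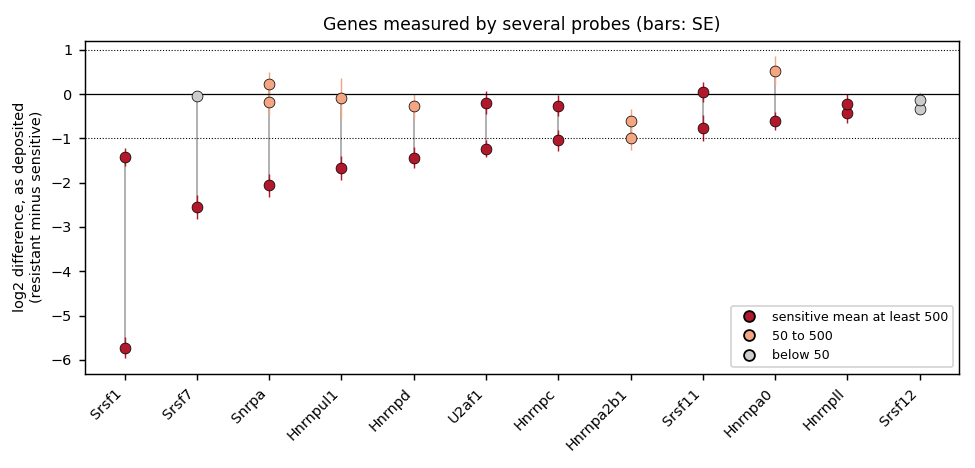
Log2 difference as deposited, resistant minus sensitive (bars show limma's SE), of each probe of the 12 genes with several probes, shaded by the mean intensity on the sensitive arrays. The probes of Snrpa span 2.29 and those of Hnrnpul1 1.58, while the wide distances for Srsf1 and Srsf7 each rest on a probe that read near 0 units.

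Other genes of the splicing machinery were also mostly lower as deposited, to a degree that varied between lists. Of 134 genes in 9 lists, 113 were measured, by 143 probes. On these, 51 probes (35.7%, against 15.5% of all probes and 38.7% of bright ones) were called lower and 1 higher as deposited. On both scales 13 fell and 1 rose (9.09% lower, against 6.37% of all probes and 13.5% of bright ones). Their median was -0.86 as deposited and -0.07 scaled. List medians when scaled lay between -0.41, for kinases and carriers of SR proteins, and 0.20, for U2 partners. After scaling 9 of the 143 probes were called higher, against 9.42% of all probes and 15.1% of bright ones. Of the 14 probes of U2 partners 3 were called higher, of Ddx46 (1.87 scaled), U2surp (1.27) and Zrsr2 (1.24). Other probes of Ddx46 (-1.26 as deposited) and U2surp (-1.41) were called lower as deposited but not after scaling. Rbfox2, a regulator of alternative exons, rose, with 436 units on the resistant array against 28.6 and 44.8 on the sensitive arrays (2.49, limma adjusted p = 1.23e-05), while its other 2 probes read at most 15.6 units on all arrays and were not called. Acin1, an exon junction complex partner, fell to 408 units, against 3056 and 4023 on the sensitive arrays (-2.96) and in 7 probes of that complex no other fell. Casc3 (-1.22) of the same complex was called as deposited but not after scaling. In the list of tri-snRNP and LSm genes 5 of 28 probes fell. They included 2 of the 3 probes of Txnl4a (-2.33 and -2.12), a small U5 protein gene, Lsm3 (-2.13) of the ring on U6 RNA, and Prpf38a (-2.09). The Txnl4a probe at -2.12 was dim, with 18.7 units on the resistant array against 231 and 269 on the sensitive arrays. Both snRNP assembly probes that fell, of 10, were of Sm-loading complex genes, Gemin6 (-2.56) and Gemin5 (-1.79). The Gemin5 probe that fell was dim, with 21.8 units on the resistant array against 217 and 179 on the sensitive arrays, and its brighter probe, with 1389 against 2630 and 3433, was not called on either scale (-1.09, scaled -0.23). Prmt5 (-1.65) and Smn1 (-1.06) were called as deposited but not after scaling. Of 13 probes for kinases and carriers of SR proteins, 8 (61.5%) were called lower as deposited, and Srrm2 (-2.13), a large SR-related protein gene of nuclear speckles, fell on both scales. The kinase genes Clk2 (-1.80 on its lower probe) and Clk1 (-1.56) and the coactivator gene Srrm1 (-1.84) were called as deposited but not after scaling on bright probes. That Clk2 probe and Srrm1 were also called lower after centring. In the Prp19 complex and helicase list 2 of 17 fell, Dhx8 (-1.55) and Rbm22 (-1.49), both dim, while Cdc5l (-1.58) and Dhx16 (-1.53) were called as deposited but not after scaling. Among other regulators 2 of 33 fell, Rbm5 (-2.13) and the dim Esrp2 (-1.74). Esrp2 read -4.67 units on the resistant array, at background, against 88.2 and 116 on the sensitive arrays, so its size is set by the offset. Dazap1 (-1.81) was called as deposited but not after scaling. No probe fell in the lists of U1 partners (13 probes), U2 partners (14) and the minor spliceosome (8), where 4 (30.8%), 4 (28.6%) and 3 (37.5%) were called lower as deposited. The lowest of these were Prpf40b (-1.74) and Luc7l3 (-1.73) of U1, Cherp (-1.68) of U2 and Zmat5 (-1.74) of the minor spliceosome.

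**Figure D5:**
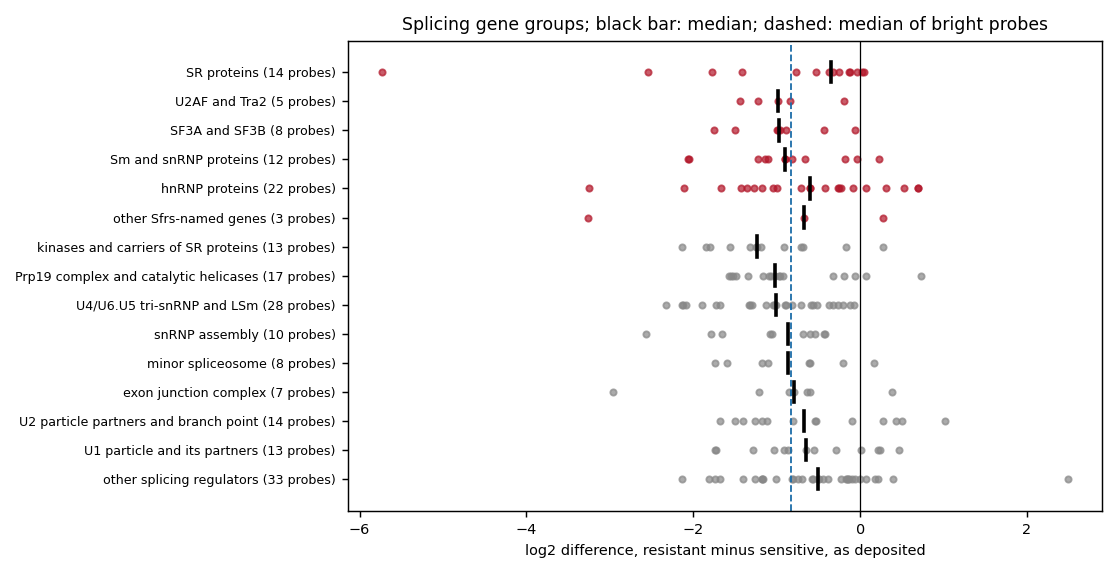
Log2 difference as deposited, resistant minus sensitive, of every probe in 6 role groups of splicing factors and hnRNP proteins (red) and 9 lists of other splicing genes (grey), with each median as a black bar and the median of all bright probes (-0.83) as a dashed line. Group medians lie between -1.23 and -0.35, on both sides of the dashed line, and the outlying points are Srsf1 (a resistant reading at background), Hnrnpm (-3.25), Scaf11 (-3.26) and Acin1 (-2.96) on the left and Rbfox2 (2.49) on the right.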

How the data were processed

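Total RNA of 1 resistant and 2 sensitive samples was amplified and dyed with Cy5, per the labels' protocols, 1 sample to an array. The deposited table holds linear intensity values, some of them below 0. The sources used here do not name the scanner, the software, the background correction or the scaling, and no background flags were used. Values were taken to log2(intensity + 50), which understates the change of dim probes.

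Probes were named through the platform's symbols (20377 with 1 symbol, 6046 without), updated through a RefSeq gene table; 6 platform symbols of members carried another current name. limma 3.58.1 in R 4.3.3 (lmFit, eBayes with a variance trend) was fitted to all 26423 probes, with Benjamini-Hochberg adjustment over all of them. Residual degrees of freedom were 1, given by the sensitive pair, beside 13.1 prior ones. The spread of the single resistant array was taken to equal theirs. The labels do not say whether the sensitive arrays are separate cultures; p-values thus reflect the spread of this pair alone, possibly a technical one. The number of arrays limits the precision.

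The members, lists, scaling and thresholds were chosen with earlier results of these data known. The rule for named genes took probes called on both scales, the largest difference each way in each role, genes whose probes disagree, 11 measured genes regardless of value (Srsf1, Srsf2, Srsf3, Sf3b1, U2af1, U2af2, Tra2b, Hnrnpa2b1, Hnrnpl, Hnrnpll and Snrpb) and, from each list of other splicing genes, called members, at most 4 by size. Other members were named after their values were seen. On data simulated from these arrays (26423 probes, 20 simulations, 200 changed probes each) the limma step recovered 100.0% of changes of 2 log2 units and 93.9% of changes of 1.5. On average 3.70 unchanged probes were called. These rates describe the simulated data only. The real resistant array was shifted by -0.88 log2 units on bright probes. Calls over all real probes numbered 5257 as deposited and 4226 after scaling. The rates were thus not shown to hold for the real calls, and no false call rate is drawn from them. Alternatives were other scalings, offsets, filters, probe summaries, variance models and thresholds, and leaving out each sensitive array. Tables and plots were made in Python 3.11.15 (numpy 2.4.6, pandas 2.3.3, and for plots matplotlib 3.10.9).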

Additional observations from a re-analysis of the deposited data

How the results depend on the processing

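No paired analysis was possible because the resistant group has 1 array and no replicate number. With 1 array left out no residual degree of freedom remains, so those values have no test. Splicing probes called lower, 20 as deposited, numbered 7 after scaling on bright probes, 7 after scaling on probes bright by the mean of all arrays (chosen after seeing the data), 8 after quantile normalization, 9 after centring on array medians, 0 when values were floored at 50 rather than offset, 38 by adjusted p alone, 32 with a size rule of 0.6 and 5 with a size rule of 2. Those called higher, 0 as deposited, numbered 3, 1, 0 and 2 under the 4 scalings in that order, 2 by adjusted p alone and 1 with the size rule of 0.6. The median of -0.79 became -0.02, -0.10, -0.35 and -0.17 under the scalings. By size alone, with no test, 20 were lower with both sensitive arrays and 24 to 25 with either left out, with 0 higher, and the median was then -0.87 to -0.81.

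All probes called higher, 1153, became 2489, 2185, 1228 and 2188 under the scalings, 120 with the floor, 2007 by adjusted p alone and 421 with the size rule of 2. All called lower, 4104, became 1737, 1803, 847 and 1514 under the scalings, 25 with the floor, 6523 with an offset of 16, 9362 by adjusted p alone, 7146 with the size rule of 0.6 and 864 with that of 2. Higher calls were 21.9% of calls as deposited and 58.9%, 54.8%, 59.2% and 59.1% under the scalings. With either sensitive array left out, and so by size alone, 1216 to 1380 were higher and 4538 to 5476 lower. The floor makes many dim probes equal on all arrays, with a spread of 0, and there all splicing calls were lost, for example Hnrnpm at -3.35. For other splicing genes, lower calls of 51 became 13, 17, 11 and 16 under the scalings, 0 with the floor, 89 by adjusted p alone, 80 with the size rule of 0.6 and 7 with that of 2. Higher calls of 1 became 9, 5, 3 and 4, then 0 with the floor, 0 with the mean of a gene's probes, 4 by adjusted p alone and 3 with the size rule of 0.6. With either sensitive array left out they were, by size alone, 2 higher in both cases and 58 to 62 lower.

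Over the 64 splicing probes, 22 that were negative as deposited were positive after scaling on bright probes. The values below are for the 34 probes that the rule for named genes took, and signs turned there only for uncalled probes. After scaling on bright probes positive values arose for Sf3b1 0.74, Srsf2 0.62, Srsf3 0.70, Snrpa (dimmer probe) 0.41, Snrpb 0.04, U2af1 (dimmer probe) 0.63, Hnrnpa0 (brightest probe) 0.27, Hnrnpa2b1 (brightest probe) 0.11, Hnrnpd (dimmer probe) 0.48, Hnrnpll (brightest probe) 0.45, Hnrnpll (dimmer probe) 0.60 and Hnrnpul1 (dimmer probe) 0.44. After quantile normalization positive values arose for Sf3b1 0.56, Srsf3 0.47, Srsf7 (dimmer probe) 0.08, Snrpa (dimmer probe) 0.34, U2af1 (dimmer probe) 0.41, Hnrnpd (dimmer probe) 0.34, Hnrnpll (dimmer probe) 0.38 and Hnrnpul1 (dimmer probe) 0.36. After centring positive values arose for Sf3b1 0.56, Srsf2 0.37, Srsf3 0.48, Srsf7 (dimmer probe) 0.58, Snrpa (dimmer probe) 0.43, U2af1 (dimmer probe) 0.43, Hnrnpa0 (brightest probe) 0.01, Hnrnpa2b1 (brightest probe) 0.02, Hnrnpd (dimmer probe) 0.35, Hnrnpll (brightest probe) 0.20, Hnrnpll (dimmer probe) 0.39 and Hnrnpul1 (dimmer probe) 0.53. After scaling on probes bright by the mean of all arrays positive values arose for Sf3b1 0.64, Srsf2 0.51, Srsf3 0.59, Snrpa (dimmer probe) 0.33, U2af1 (dimmer probe) 0.53, Hnrnpa0 (brightest probe) 0.16, Hnrnpa2b1 (brightest probe) 0.02, Hnrnpd (dimmer probe) 0.38, Hnrnpll (brightest probe) 0.34, Hnrnpll (dimmer probe) 0.49 and Hnrnpul1 (dimmer probe) 0.37. With an offset of 16 positive values arose for Hnrnpul1 (dimmer probe) 0.01. Leaving out either sensitive array gave -0.16 to 0.04 for Sf3b1, -0.01 to 0.10 for Srsf11 (brightest probe), -0.45 to 0.07 for U2af1 (dimmer probe) and -0.89 to 0.70 for Hnrnpul1 (dimmer probe). Median centring shifts the median of all probes by construction, to 0.35, while scaling on bright probes and quantile normalization bring it to -0.02. The other causes were not tested. Dim probes limit the calls: 5 splicing probes read at most 10 units on the resistant array.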
